A study of Mus musculus with 35 samples.

Results

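Amino acid and peptide transporters were examined in the small intestine of wild-type and PPARα-null mice 6 h after an oral dose of a PPARα agonist. The genes were taken by symbol alone, as those of the solute carrier families Slc1, Slc3, Slc7, Slc15, Slc36, Slc38 and Slc43 together with Slc6a14, Slc6a19, Slc6a20a and Slc16a10. This rule found 51 genes on 106 probesets, of the 18193 genes and 45037 probesets of the array. A gene was called expressed when at least 1 of its probesets had a mean log2 level above 5, a linear intensity of 32, in at least 1 group of mice. By that criterion 25 of the 51 genes, on 35 probesets, were expressed, beside 8626 of the 18193 genes of the array. A gene close to that level could pass it through a single high group.

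The whole small intestine of each of 35 mice gave the RNA for 1 of 35 arrays. Wild-type mice were of the strain 129S1/SvImJ and PPARα-null mice, which lack Ppara in all tissues, of the strain 129S4/SvJae, so that a difference between genotypes cannot be told apart from a difference between substrains. All were 4-month-old males, kept on a diet with olive oil as fat and fasted for 4 h before the dose. Each mouse received 400 µl by gavage, either of a suspension of WY14643, a synthetic PPARα agonist, in carboxymethyl cellulose, or of a synthetic triacylglycerol made of a single fatty acid, eicosapentaenoic acid (EPA), docosahexaenoic acid (DHA) or oleic acid (OA). There were 4 wild-type and 4 PPARα-null mice for WY14643, 5 and 5 for EPA, 5 and 4 for DHA, and 4 and 4 for OA. Mice without an agonist were not analysed here, and the WY14643 mice differed from the other mice in vehicle and fat load as well as in agonist. In 3 arrays Cyp4a10, a PPARα target gene, went against the genotype label, namely replicate 5 of the wild-type EPA mice at a log2 level of 1.81, replicate 5 of the PPARα-null EPA mice at 9.91 and replicate 1 of the PPARα-null OA mice at 10.61. The other wild-type arrays lay between 8.15 and 12.75 and the other PPARα-null arrays between 1.36 and 2.5. These 3 libraries were kept under their labels, and transporter calls that depend on them are named, most with the values without them.

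Dietary protein reaches the enterocyte as free amino acids and as di- and tripeptides, which cross the brush border on apical transporters driven by sodium, protons or exchange. Basolateral exchangers and uniporters then pass amino acids on to the blood, and several of them, like the apical cystine carrier, work only as pairs of a heavy chain (Slc3a1 or Slc3a2) and a light chain of the Slc7 family. Other members supply the cell itself or the lysosome, and several of these are known targets of ATF4, the transcription factor of the amino acid response. PPARα is a nuclear receptor for fatty acids that binds with RXR to direct repeats of its recognition hexamer.

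To show the sequence near the start of the genes on which the comparisons turned, promoter windows were read from RefSeq sequences of build GRCm38.p6. Of the 25 expressed genes, 22 had at least 1 window, together 30 windows of 250 bases before an annotated start, whereas Slc1a5, Slc38a1 and Slc43a3 had none in the table used. The windows below are those of the basolateral transporters Slc7a8, Slc16a10 and Slc7a7, which had the lowest adjusted p between the genotypes averaged over the agonists, and of Slc7a1, which had the largest agonist difference. All 4 lie on the minus strand directly upstream of a gene start, Slc7a8 at chr14:54781887-54782136, Slc16a10 at chr10:40142255-40142504, Slc7a7 at chr14:54417945-54418194 (1 of 5 annotated starts) and Slc7a1 at chr5:148399905-148400154 (1 of 2 starts). Capitals mark a GC box (GGGCGG, or CCGCCC on the opposite strand) in the windows of Slc7a8, Slc16a10 and Slc7a1, and in the window of Slc7a7 the core of the amino acid response element (TGATGNAA).
Slc7a8: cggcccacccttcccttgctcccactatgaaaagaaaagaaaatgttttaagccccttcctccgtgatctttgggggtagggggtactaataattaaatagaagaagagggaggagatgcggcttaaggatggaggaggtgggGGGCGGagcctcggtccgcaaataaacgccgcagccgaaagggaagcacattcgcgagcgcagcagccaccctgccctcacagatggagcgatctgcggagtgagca
Slc16a10: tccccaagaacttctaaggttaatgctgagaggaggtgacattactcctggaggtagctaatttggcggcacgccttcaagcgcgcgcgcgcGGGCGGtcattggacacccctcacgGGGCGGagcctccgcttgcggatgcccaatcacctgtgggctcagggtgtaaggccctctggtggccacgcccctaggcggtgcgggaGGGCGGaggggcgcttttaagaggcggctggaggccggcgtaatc
Slc7a7: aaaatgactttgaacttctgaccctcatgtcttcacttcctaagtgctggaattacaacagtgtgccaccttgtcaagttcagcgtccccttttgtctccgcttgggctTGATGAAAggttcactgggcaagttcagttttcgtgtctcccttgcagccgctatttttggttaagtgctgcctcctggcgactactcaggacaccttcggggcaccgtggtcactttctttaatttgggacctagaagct
Slc7a1: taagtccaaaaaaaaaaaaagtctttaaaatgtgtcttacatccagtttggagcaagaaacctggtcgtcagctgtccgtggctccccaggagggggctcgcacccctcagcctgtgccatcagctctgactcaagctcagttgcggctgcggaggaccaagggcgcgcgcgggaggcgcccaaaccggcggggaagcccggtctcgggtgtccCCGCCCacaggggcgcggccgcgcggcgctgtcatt

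The motifs were searched as exact letters on both strands and are a description of these windows, not of binding sites. The direct repeat bound by PPARα and RXR, DR1, was in 0 of the 30 windows and in 0.338% of all 32851 windows. The amino acid response core TGATGNAA was in 2 windows, both of Slc7a7, beside 3.45% of all windows, and in the window printed above it read TGATGAAA at 141 to 134 bases before the start. A GC box was found in 17 windows of 15 genes, beside 32.7% of all windows. By role, the GC box was in all 5 basolateral genes, in 3 of 3 housekeeping genes with a window, in 3 of 5 intracellular genes and in 2 of 7 apical genes, the apical windows having a median GC content of 55.4% and the housekeeping windows one of 63.6%. The core motif of HNF4, CAAAGTCCA, was in 1 window, that of Slc3a1, beside 0.384% of all windows, and that of CDX, TTTATGG, in 1 window, that of Slc7a15, beside 2.43%. TATAAA was found in Slc3a1, Slc7a1 and Slc7a15, beside 12.4% of all windows.

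Most of the apical and basolateral genes were expressed. Of 9 apical genes 8 were expressed, of 7 basolateral genes 5, of 7 housekeeping genes 4 and of 8 intracellular genes 5. Among the 18 other members only Slc7a15, a light chain of the Slc7 family, and Slc43a3, a nucleobase transporter, passed the level. Slc7a6os, the neighbour of Slc7a6 on the opposite strand, matched the symbol rule without being a transporter. Slc38a7 lay just inside the level with a highest group mean of 5.44 and Slc7a6, the basolateral y+LAT2, just outside at 4.68. Slc7a5 (LAT1) at 4.60, the apical Slc6a14 at 4.06, the renal peptide transporter Slc15a2 at 3.62 and the glial glutamate transporters Slc1a3 at 2.61 and Slc1a2 at 2.14 had their highest group means below it. A gene with several expressed probesets was read on the one of highest mean, and a gene was counted as changed when at least 1 of its expressed probesets passed the test at an adjusted p of 0.05. Levels of different probesets are not compared here, since each has its own affinity.

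Among the apical genes, Slc6a20a (SIT1, the proline and imino acid transporter) had group means between 10.88 and 12.25, Slc6a19 (B0AT1, the main neutral amino acid transporter) between 11.10 and 11.77, and Slc7a9 and Slc3a1, the light and heavy chain of the cystine and cationic amino acid transporter, between 11.55 and 11.86 and between 10.72 and 11.03. Slc15a1 (PEPT1), which takes up di- and tripeptides with protons, lay between 8.65 and 9.20. Slc36a1 (PAT1), a proton-driven transporter of small neutral amino acids, ranged more widely, from 7.69 to 9.10. Slc1a1 (EAAT3), the glutamate and aspartate transporter, lay between 7.23 and 8.06 and Slc1a5 (ASCT2), a neutral amino acid exchanger, between 5.76 and 6.40. On the basolateral side, group means of Slc7a7 (y+LAT1, which exports cationic amino acids) and its heavy chain Slc3a2 (4F2hc) lay between 10.71 and 11.13 and between 10.55 and 11.07. Those of Slc43a2 (LAT4) lay between 9.22 and 10.33, of Slc16a10 (TAT1, an exporter of aromatic amino acids) between 8.18 and 9.88, and of Slc7a8 (LAT2, an exchanger of neutral amino acids) between 6.79 and 8.62. Slc7a8 and Slc16a10 had the widest spans between the lowest and highest group mean among the 25 genes.

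**Figure D1:**
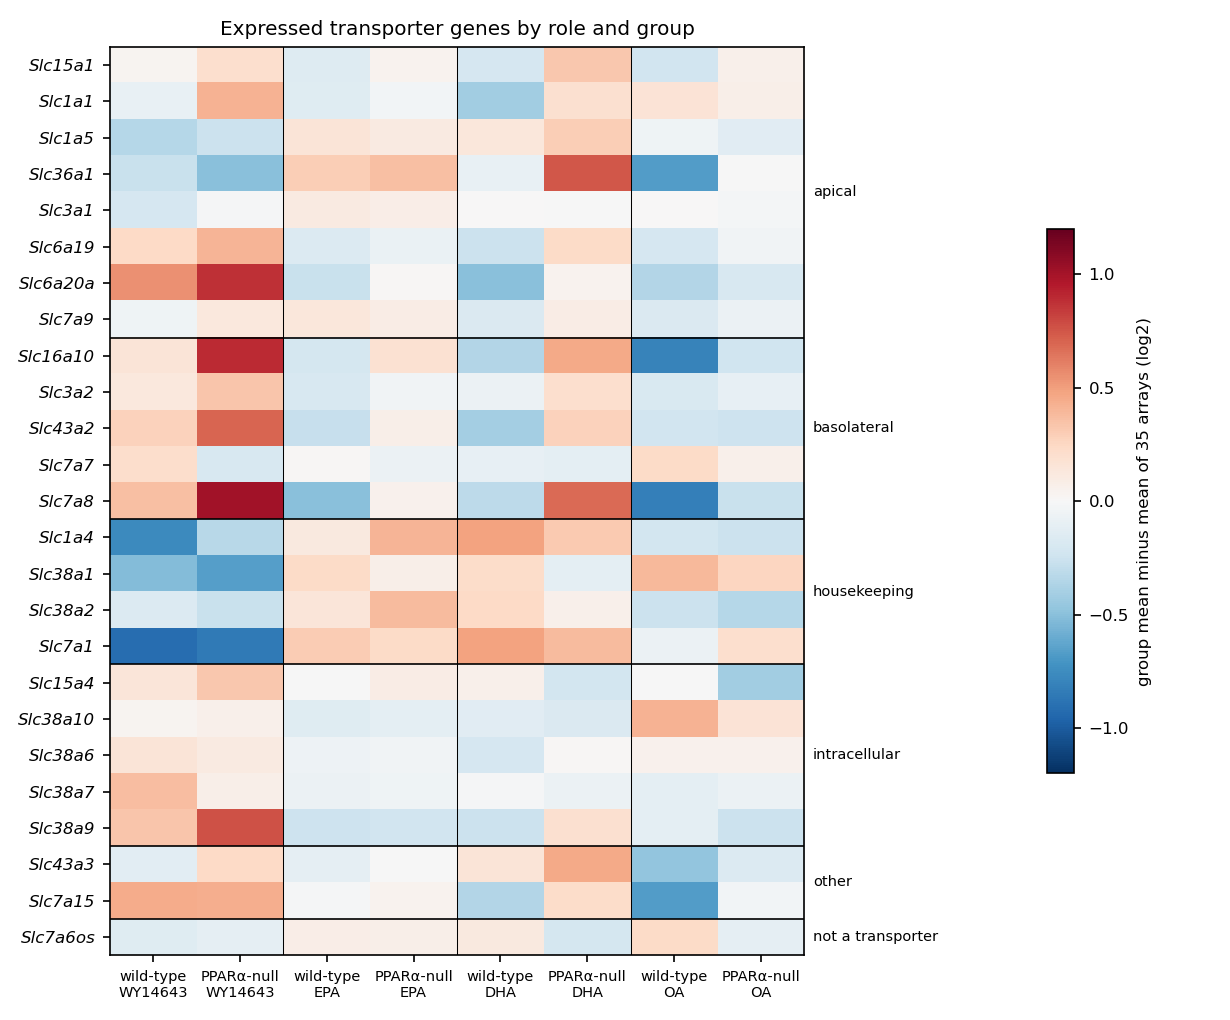
Colour gives the mean log2 level of each of the 25 expressed genes (by role, from top to bottom) in each of the 8 groups, minus that gene's mean over the 35 arrays. On the probeset drawn, the basolateral genes Slc16a10, Slc7a8 and Slc43a2 are highest in PPARα-null mice after WY14643, with means of 9.88, 8.62 and 10.33. The other expressed probesets of Slc43a2, not drawn, are highest in wild-type mice after WY14643, at 7.87 and 6.09. The housekeeping gene Slc7a1 is lowest in both WY14643 groups, with means of 7.96 and 8.02.

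The genotypes were compared within each agonist to ask which transporters depended on PPARα, and all differences are given as wild-type minus PPARα-null on the log2 scale. After WY14643, 2 of the 25 genes changed, beside 7.56% of all 8626 expressed genes. Slc7a7 was higher in wild-type mice and Slc16a10 lower. In wild-type mice Slc7a7 was measured at 11.06, 11.11, 11.13 and 11.16, and in PPARα-null mice at 10.65, 10.75, 10.76 and 10.68. All 4 wild-type mice lay above all 4 PPARα-null mice. The difference was 0.41 (SE 0.0862, 95% interval 0.23 to 0.58, 1.32-fold, adjusted p = 0.00224 by limma), and without the 3 doubted libraries the adjusted p was 0.000251. A second probeset of Slc7a7 differed in the same direction by 0.61 with an adjusted p of 0.0829. For Slc16a10 the wild-type mice were at 9.15, 9.08, 9.09 and 9.23 and the PPARα-null mice at 9.80, 9.87, 9.94 and 9.91. These values did not overlap either, the difference was -0.74 (SE 0.22, 1.68-fold lower, adjusted p = 0.0362), and a second probeset gave -0.71 (adjusted p = 0.0418, and 0.0511 without the 3 doubted libraries). Leaving out any 1 of the 8 mice put the adjusted p of the probeset read here between 0.0501 and 0.0955, with differences of -0.77 to -0.72.

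Slc7a8 had the next largest difference after WY14643 without passing the test. Its levels were 8.02, 8.08, 7.91 and 7.86 in wild-type and 8.64, 8.49, 8.68 and 8.65 in PPARα-null mice, which did not overlap, with a difference of -0.65 (SE 0.232, adjusted p = 0.0971). Slc1a1 lay at 7.32, 7.32, 7.76 and 7.84 in wild-type and at 8.08, 7.98, 8.03 and 8.17 in PPARα-null mice, again without overlap, with a difference of -0.50 (SE 0.218, adjusted p = 0.195). Slc15a1 did not pass, with 8.75, 9.12, 8.87 and 8.94 against 9.02, 9.27, 9.05 and 9.0 and a difference of -0.17 (adjusted p = 0.615). Slc36a1 was at 8.11, 7.73, 7.78 and 8.76 in wild-type and at 7.96, 7.84, 7.78 and 7.86 in PPARα-null mice, a difference of 0.23 (adjusted p = 0.78) with overlapping groups. The summed linear level of 5 duodenal and jejunal marker genes, 4 of them expressed, was nearly that of Fabp1 alone, a fatty acid binding protein and known PPARα target. Fabp1 was at 14.92 or above in wild-type and at 14.64 or below in PPARα-null mice after WY14643, and its groups did not overlap either after DHA (14.85 to 14.98 against 14.62 to 14.82) and OA (14.94 to 14.97 against 14.74 to 14.86). Without Fabp1 the log2 sum of the other 4 genes had a median of 9.66 in wild-type and 9.98 in PPARα-null mice after WY14643, with Cybrd1 at 6.03 to 7.59 and 8.14 to 8.89. The log2 sums of 8 enteroendocrine genes, all expressed, had a median of 12.90 in wild-type and 13.25 in PPARα-null mice. The part of these genes' changes in the transporter values was not tested, and in RNA of whole intestine fewer cells of a type cannot be told apart from less RNA per cell.

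**Figure D2:**
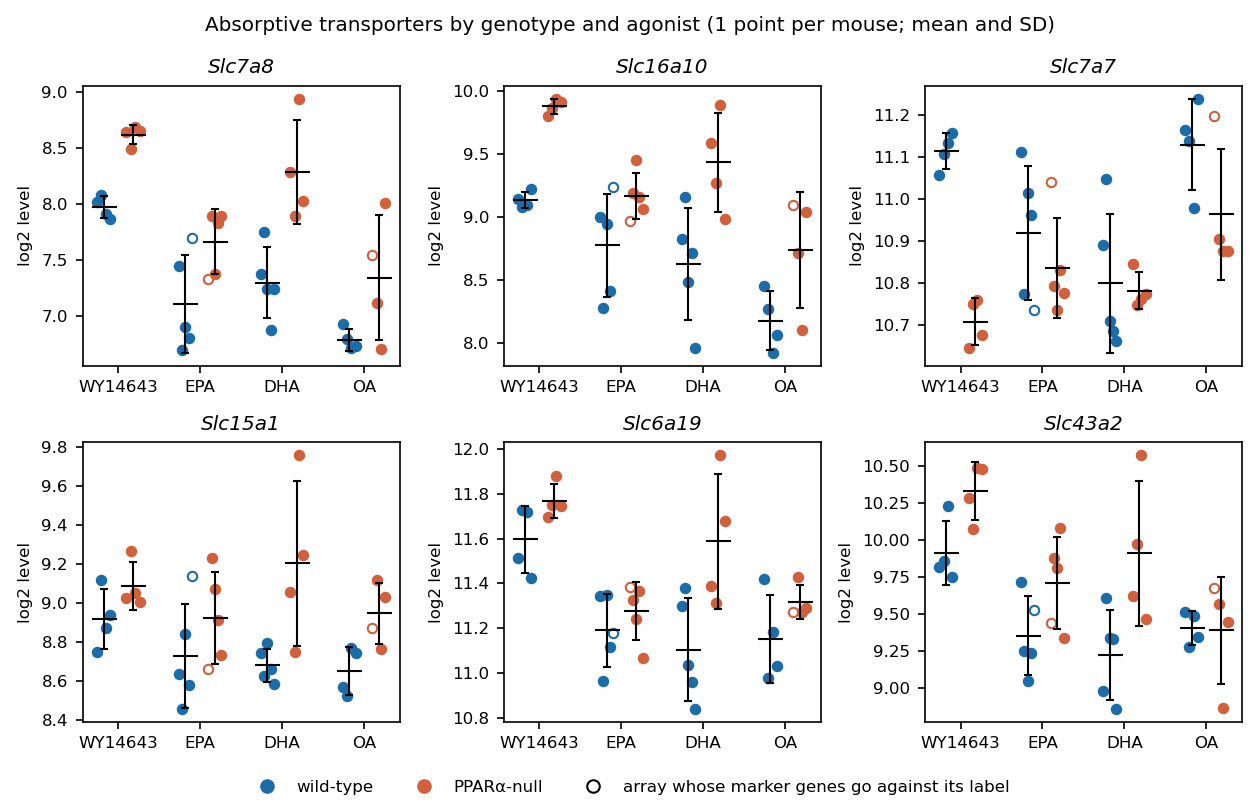
Log2 level of 6 absorptive transporters in each mouse (points), with the mean and SD of each genotype and agonist. Open circles are the 3 arrays whose Cyp4a10 level went against the label. After WY14643 wild-type and PPARα-null mice do not overlap for Slc7a8, Slc16a10 and Slc7a7, and the scatter of the PPARα-null DHA mice is set in part by replicate 3, at 8.94 for Slc7a8 and 9.76 for Slc15a1.

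After DHA 6 of the 25 genes, 24%, were called, all lower in wild-type mice, beside 8.2% of all expressed genes in either direction and 3.71% that were lower. They were the apical Slc6a19, Slc7a9 and Slc15a1 and the basolateral Slc7a8, Slc16a10 and Slc43a2. The calls rested on few mice: without replicate 3 of the PPARα-null DHA mice 0 of the 25 genes were called, and without replicate 2 of the wild-type DHA mice 10 were. In a fit to only these 2 groups 0 were called, and without the filter on low levels 3 were. The share of all genes called in these fits is not given here. Whether the changes of count were particular to these genes was not tested. Slc7a8 lay at 7.37, 7.75, 7.24, 6.87 and 7.24 in wild-type mice and at 8.28, 7.90, 8.94 and 8.02 in PPARα-null mice. All PPARα-null mice were above all wild-type mice, and the difference was -0.99 (SE 0.22, 95% interval -1.44 to -0.54, 1.99-fold lower, adjusted p = 0.0065), falling to -0.77 (adjusted p = 0.0637) without PPARα-null replicate 3. Slc16a10 was at 8.82, 9.16, 8.49, 8.72 and 7.96 in wild-type and at 9.59, 9.28, 9.89 and 8.99 in PPARα-null mice. The groups overlapped, with a difference of -0.81 (SE 0.209, adjusted p = 0.0184), which became -0.65 (adjusted p = 0.132) without that mouse, while leaving out wild-type replicate 5 or PPARα-null replicate 1 also ended the call (adjusted p = 0.0794 and 0.0587). Slc43a2 was at 8.98, 9.61, 9.34, 9.33 and 8.86 against 9.62, 9.97, 10.57 and 9.47. It differed by -0.68 (SE 0.192, adjusted p = 0.0287) on the probeset read here, and its 2 other expressed probesets gave -0.43 (adjusted p = 0.278) and -0.60 (adjusted p = 0.488). Without PPARα-null replicate 3 the difference of Slc43a2 was -0.46 (adjusted p = 0.232), and its call also ended without wild-type replicate 1 (adjusted p = 0.0734) or 5 (adjusted p = 0.101).

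Of the apical genes called after DHA, Slc15a1 was measured at 8.74, 8.63, 8.79, 8.66 and 8.58 in wild-type and at 9.06, 8.75, 9.76 and 9.24 in PPARα-null mice. The highest PPARα-null value was that of replicate 3, while replicate 2 lay within the wild-type range. The difference of Slc15a1 was -0.52 (SE 0.144, adjusted p = 0.0259), and it was -0.34 (adjusted p = 0.224) without PPARα-null replicate 3. Leaving out wild-type replicate 4 or 5 also ended its call (adjusted p = 0.0518 and 0.0728). Slc6a19 was at 11.30, 11.38, 11.04, 10.96 and 10.84 against 11.39, 11.31, 11.97 and 11.68, overlapping at 1 PPARα-null mouse, with a difference of -0.48 (SE 0.117, adjusted p = 0.0111) on the probeset read here and -0.31 (adjusted p = 0.123) on the other. Without PPARα-null replicate 3 it was -0.36 (adjusted p = 0.109). Slc7a9 was at 11.64, 11.63, 11.49, 11.61 and 11.40 in wild-type and at 11.97, 11.77, 11.89 and 11.64 in PPARα-null mice. The lowest PPARα-null mouse stood level with the highest wild-type mouse, to 2 decimals, the difference was -0.26 (SE 0.0717, adjusted p = 0.0255), and the call ended without PPARα-null replicate 3 (-0.24, adjusted p = 0.123), PPARα-null replicate 1 (adjusted p = 0.114), wild-type replicate 3 (adjusted p = 0.0538) or wild-type replicate 5 (adjusted p = 0.0955).

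Slc36a1 and Slc1a1 did not pass after DHA. Slc36a1 was at 8.78, 8.29, 7.94, 8.09 and 8.27 in wild-type and at 9.66, 9.28, 8.50 and 8.97 in PPARα-null mice, a difference of -0.83 (adjusted p = 0.126). Slc1a1 was at 7.08, 7.87, 6.77, 7.58 and 6.84 against 7.77, 8.13, 8.21 and 7.23, a difference of -0.61 (adjusted p = 0.0765). Slc7a7, the gene that was higher in wild-type mice after WY14643, was at 10.89, 11.05, 10.71, 10.69 and 10.66 and 10.85, 10.75, 10.76 and 10.77 after DHA, a difference of 0.02 (adjusted p = 0.931).

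After EPA 0 of the 25 genes were called by limma, as were 0% of all expressed genes, and 2 members, beside 12.1% of all genes, had an unadjusted p under 0.05. Without the 3 doubted libraries, 2 of which were EPA mice, the count of members stayed at 0 and 2.08% of all genes were called. Slc7a8 came nearest, at 7.45, 6.69, 6.90, 6.80 and 7.69 in wild-type and 7.89, 7.37, 7.83, 7.89 and 7.33 in PPARα-null mice. The 2 groups overlapped, with a difference of -0.56 (SE 0.207, adjusted p = 0.44), and replicate 5 of both genotypes was among the doubted libraries; without these it was -0.79 (adjusted p = 0.0668). Slc16a10, at 9.0, 8.28, 8.95, 8.41 and 9.24 and 9.19, 9.45, 9.16, 9.06 and 8.97, differed by -0.39 (adjusted p = 0.57), and by -0.56 (adjusted p = 0.198) without them. Slc36a1 was at 9.10, 8.37, 8.23, 8.27 and 9.30 in wild-type mice (mean 8.65). In PPARα-null mice it was at 8.86, 9.15, 8.98, 8.94 and 7.68 (mean 8.72). The last value of each genotype is that of the doubted replicate 5. The paper lists Slc36a1, Slc7a8 and Slc16a10 as lower in wild-type mice after EPA, by an unadjusted p. Whether the 2 doubted EPA libraries had been exchanged was not tested. After OA 0 of the 25 genes were called, beside 0.498% of all genes, with 6 members and 15% of all genes passing 0.05 before adjustment, and without the doubted libraries 0 members and 1.77% of all genes were called. Slc7a15 was at 6.86, 6.87, 6.46 and 6.44 in wild-type and 7.36, 6.80, 7.23 and 7.79 in PPARα-null mice, a difference of -0.64 (adjusted p = 0.241). For Slc36a1 the PPARα-null OA mice fell into a pair at 9.15 (the doubted replicate 1) and 9.18 and a pair at 7.48 and 7.62, with the wild-type mice at 7.47, 8.01, 7.49 and 7.78, and the difference was -0.67 (adjusted p = 0.461).

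Averaged over the 4 agonists, with all 35 mice in the comparison, 11 of the 25 genes were called (44%), beside 25.7% of all expressed genes. Of these, 10 genes (40%) were lower in wild-type mice, beside 14.1% of all genes, and 1 was higher (4%, beside 11.7%). The basolateral group held 4 that were lower, Slc7a8, Slc16a10, Slc43a2 and Slc3a2, and the 1 that was higher, Slc7a7, so that all 5 expressed basolateral genes were called. Of the 8 apical genes 4 were lower, Slc15a1, Slc6a19, Slc6a20a and Slc7a9. None of the 4 housekeeping genes, Slc7a1, Slc38a1, Slc38a2 and Slc1a4, was called by limma, with averaged differences between -0.13 and 0.19 and adjusted p between 0.18 and 0.758, and none of the 5 intracellular genes was. The median difference was -0.36 over the basolateral, -0.25 over the apical, 0.00 over the housekeeping and 0.06 over the intracellular genes. Over the 25 genes together it was -0.13, with 18 of 25 below 0, beside -0.02 over all expressed genes, of which 56.4% were below 0.

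Slc7a8 had the largest averaged difference, -0.69 (SE 0.112, 1.61-fold lower, adjusted p = 4.61e-05), followed by Slc16a10 at -0.63 (SE 0.106, adjusted p = 7.65e-05). Within the 4 agonists the differences ran from -0.99 to -0.55 for Slc7a8 and from -0.81 to -0.39 for Slc16a10. Slc43a2 differed by -0.36 (adjusted p = 0.00834), although its 2 other probesets gave -0.10 each (adjusted p = 0.581 and 0.812). Slc3a2 (4F2hc), the heavy chain that Slc7a7 and Slc7a8 share, differed by -0.17 (adjusted p = 0.0121), in the direction opposite to Slc7a7 at 0.17 (adjusted p = 0.00407). Slc15a1 differed by -0.30 (adjusted p = 0.00411), Slc6a20a by -0.33 (adjusted p = 0.0151), Slc6a19 by -0.23 (adjusted p = 0.00648) and Slc7a9 by -0.12 (adjusted p = 0.0146). Slc43a3 differed by -0.27 (adjusted p = 0.0135) and Slc7a15 by -0.32 (adjusted p = 0.0358), the latter passing the threshold only with the 3 doubted libraries included (0.0806 without them) and being lost when any of 8 other single mice was left out (adjusted p = 0.0506 to 0.0695), replicates 3 and 4 of the wild-type OA, replicates 4 and 5 of the wild-type DHA, replicates 3 and 4 of the wild-type WY14643, replicate 4 of the PPARα-null OA and replicate 1 of the PPARα-null WY14643 mice. Slc1a1 went the other way, from -0.28 (adjusted p = 0.0527) to -0.31 (adjusted p = 0.033) without those libraries.

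**Figure D3:**
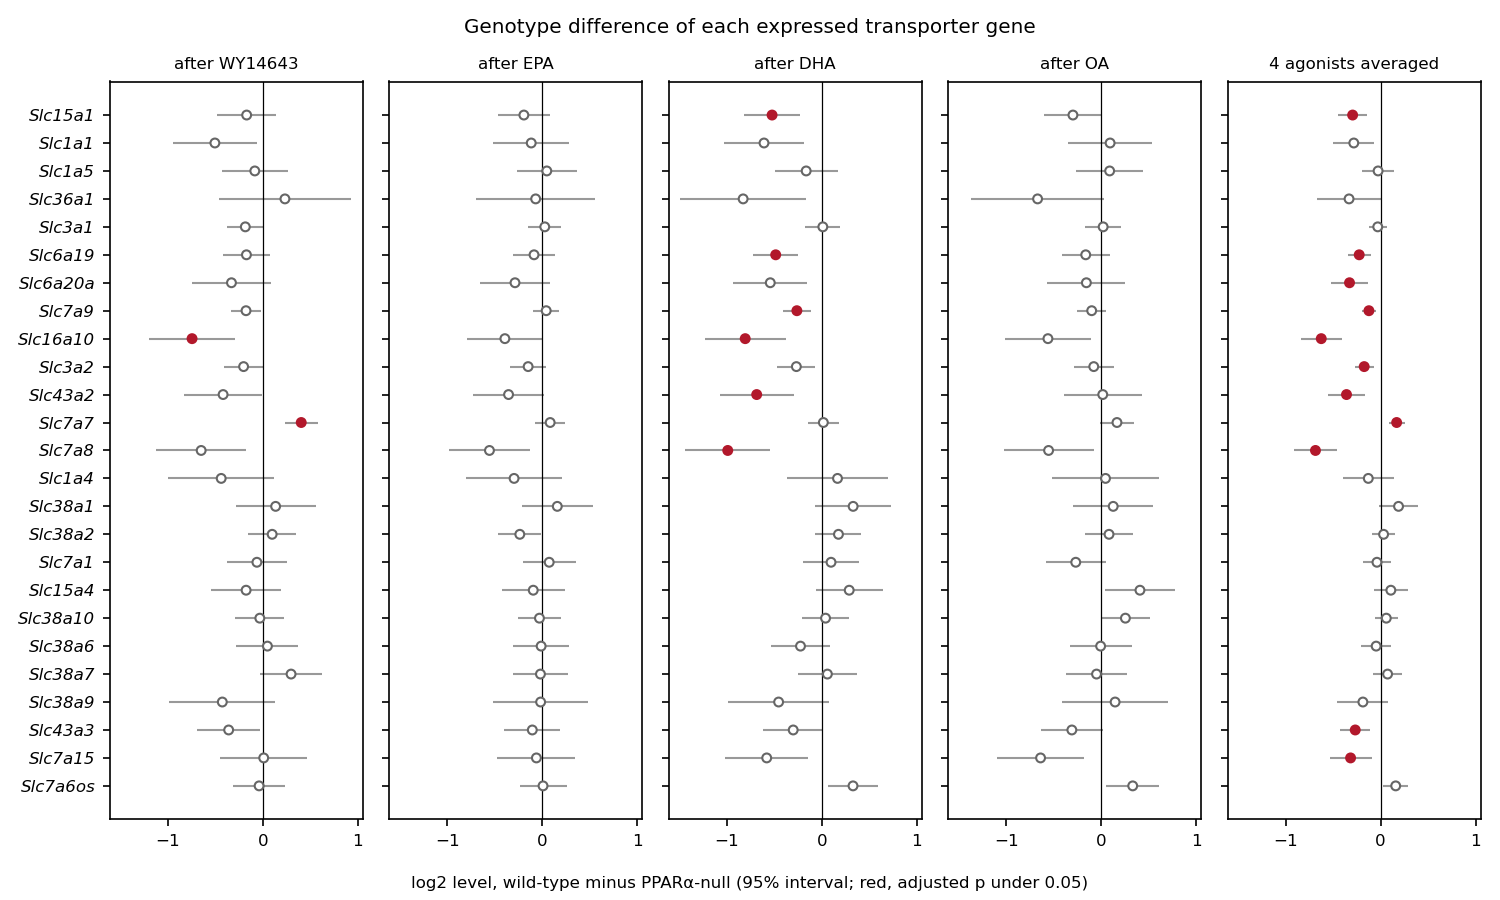
Difference in log2 level, wild-type minus PPARα-null, with its 95% interval, for each of the 25 expressed genes after each agonist and averaged over the 4 agonists, red where the adjusted p was under 0.05. Most points lie left of 0 for the apical and basolateral genes at the top, Slc7a7 lies right of it after WY14643 at 0.41, and after EPA and OA no point is red.

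Whether the genotype difference varied among the agonists was tested as an interaction over the 8 groups. By limma 0 of the 25 genes passed, beside 1.17% of all genes, and 2 members had an unadjusted p under 0.05, beside 11.3% of all genes. These were Slc7a7 (adjusted p = 0.381) and Slc7a9 (adjusted p = 0.502). A call after WY14643 or DHA and none after EPA or OA therefore does not show that a gene responded differently to these agonists.

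The agonists were then compared within each genotype. In a test over the 4 agonists 19 of the 25 genes (76%) differed in wild-type mice, beside 48.1% of all genes, and 16 (64%) in PPARα-null mice, beside 36.4%. Without the 3 doubted libraries the adjusted p of that limma test rose from 0.0461 to 0.0657 for Slc1a5 in wild-type mice. In PPARα-null mice it rose from 0.045 to 0.0606 for Slc1a5 and from 0.0477 to 0.143 for Slc1a4. In 12 pairwise comparisons, 6 in each genotype, p-values were adjusted over all expressed probesets within each comparison and not over the 12. WY14643 differed from OA in 11 of the 25 genes in wild-type mice (44%, beside 33.8% of all genes), from EPA in 14 (56%, beside 45.1%) and from DHA in 14 (56%, beside 40.5%). In PPARα-null mice these counts were 12 (48%, beside 31.5%), 13 (52%, beside 37.8%) and 7 (28%, beside 19.9%). The 3 comparisons of a genotype share the same WY14643 mice. Of all 25 genes, Slc6a20a was higher and Slc7a1 lower after WY14643 in each of the 6 comparisons.

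Slc7a1 (CAT1), the carrier by which most cells take up arginine and lysine, had the largest of these differences. In wild-type mice it was at 7.87, 7.89, 7.79 and 8.27 after WY14643, at 9.01, 9.22, 9.15, 9.24 and 9.23 after EPA, at 9.14, 9.09, 9.58, 9.53 and 9.40 after DHA and at 8.52, 8.85, 8.82 and 9.0 after OA. In PPARα-null mice the values were 7.94, 8.0, 8.23 and 7.91 after WY14643, 9.03, 8.86, 9.09, 9.23 and 9.28 after EPA, 9.18, 9.42, 8.78 and 9.62 after DHA and 8.84, 9.31, 9.36 and 8.76 after OA. The WY14643 mice of both genotypes lay below every triacylglycerol mouse of their genotype. In wild-type mice Slc7a1 was lower than after OA by 0.84 (SE 0.154, 1.79-fold, adjusted p = 0.000163), than after EPA by 1.21 (2.32-fold) and than after DHA by 1.39 (SE 0.146, 2.62-fold, adjusted p = 1.06e-07). In PPARα-null mice the differences were -1.05, -1.08 and -1.23 against OA, EPA and DHA, and a second probeset of the gene gave -0.99 to -1.55 over the 6 comparisons. Every call on Slc7a1 against a triacylglycerol was kept when any 1 of the mice compared was left out.

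Slc38a1 (SNAT1) and Slc38a2 (SNAT2) take up glutamine and other small neutral amino acids with sodium, and both lie on chromosome 15, which also holds Ppara. Slc38a1 was at 8.34, 8.18, 8.46 and 8.82 in wild-type mice after WY14643, against 8.79, 9.51, 9.37, 9.32 and 8.99 after EPA, 8.89, 8.66, 9.56, 9.56 and 9.28 after DHA and 9.20, 9.22, 9.58 and 9.43 after OA. It was lower by 0.75 than after EPA (adjusted p = 0.00318), by 0.74 than after DHA (adjusted p = 0.00433) and by 0.91 than after OA (SE 0.206, adjusted p = 0.00141), and the WY14643 mice reached the triacylglycerol range in 1 mouse. In PPARα-null mice Slc38a1 was at 8.33, 8.09, 8.47 and 8.36 after WY14643, 8.91, 9.36, 9.01, 9.12 and 8.80 after EPA, 8.62, 9.27, 8.26 and 9.29 after DHA and 8.88, 9.41, 9.33 and 9.30 after OA. There the differences were -0.72 (adjusted p = 0.00569), -0.54 (adjusted p = 0.0701) and -0.92 (adjusted p = 0.00173) in the same order. On the probeset read here, Slc38a2 separated along another line, since OA stood with WY14643. In wild-type mice it was at 10.28, 10.27, 10.19 and 9.94 after WY14643, 10.11, 10.04, 10.25 and 9.91 after OA, 10.36, 10.71, 10.76, 10.20 and 10.37 after EPA and 10.40, 10.68, 10.58, 10.57 and 10.62 after DHA. WY14643 differed from OA by 0.09 (adjusted p = 0.631), from EPA by -0.31 (adjusted p = 0.0373) and from DHA by -0.40 (adjusted p = 0.00951), and the call against EPA was lost without EPA replicate 2 or 3 or WY14643 replicate 3 or 4 (adjusted p = 0.0615 to 0.145). A second probeset of Slc38a2 had wild-type means of 7.07 after WY14643, 7.13 after EPA, 7.13 after DHA and 6.82 after OA. Its PPARα-null means were 6.74, 7.16, 6.97 and 6.77 in the same order. The limma test over the 4 agonists gave it adjusted p of 0.335 in wild-type and 0.123 in PPARα-null mice.

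Slc38a2 in PPARα-null mice lay at 9.92, 10.07, 10.15 and 10.14 after WY14643, 9.90, 10.26, 10.22 and 9.59 after OA, 10.67, 10.42, 10.85, 10.85 and 10.79 after EPA and 10.51, 10.34, 10.32 and 10.41 after DHA. After EPA it exceeded WY14643 by 0.65 (adjusted p = 0.000208) and OA by 0.72 (adjusted p = 0.000541), both without overlap. The difference of EPA from OA was 0.40 in wild-type mice (adjusted p = 0.036), a call that was lost without OA replicate 1, 2 or 4 or EPA replicate 2 or 3 (adjusted p = 0.0694 to 0.132). DHA exceeded OA by 0.49 in wild-type mice (adjusted p = 0.0128, and 0.0692 without OA replicate 4) and by 0.40 in PPARα-null mice (adjusted p = 0.133).

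Slc1a4 (ASCT1), an exchanger of alanine, serine and cysteine, was at 5.51, 5.66, 4.99 and 5.27 in wild-type mice after WY14643, 6.20, 6.03, 5.90, 6.68 and 6.37 after EPA, 6.77, 6.17, 6.75, 6.39 and 6.95 after DHA and 5.77, 6.56, 5.77 and 5.53 after OA. It was lower after WY14643 than after DHA by 1.25 (SE 0.261, adjusted p = 0.000516) and than after EPA by 0.88 (adjusted p = 0.00825), and it differed from OA by -0.55 (adjusted p = 0.138). In PPARα-null mice, at 5.88, 6.23, 5.87 and 5.20 after WY14643 and 6.79, 5.93, 5.79, 7.21 and 6.94 after EPA, it was lower by 0.74 (adjusted p = 0.0304), with an adjusted p of 0.0847 without the 3 doubted libraries and of 0.0526 to 0.146 without EPA replicate 1, 4 or 5 or WY14643 replicate 3 or 4. Slc1a5 (ASCT2) was lower after WY14643 than after EPA in wild-type mice, 5.39, 5.89, 5.97 and 5.79 against 6.0, 6.60, 6.26, 6.14 and 6.28 (-0.50, adjusted p = 0.0157), and than after DHA at 6.10, 6.12, 6.52, 6.28 and 6.14 (-0.47, adjusted p = 0.0243). Without WY14643 replicate 1, the lowest of these mice, neither call of Slc1a5 was kept (adjusted p = 0.0914 and 0.128), nor was the one against EPA without EPA replicate 2 (adjusted p = 0.053) or the one against DHA without DHA replicate 3 (adjusted p = 0.0715). In PPARα-null mice Slc1a5 was lower after WY14643 than after DHA by 0.55 (adjusted p = 0.0283 by limma). That call was lost without DHA replicate 1 or 4 or WY14643 replicate 1 or 2 (adjusted p = 0.0716 to 0.151).

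Of the apical genes Slc6a20a (SIT1) was higher after WY14643 in all comparisons. In wild-type mice it was at 12.07, 11.91, 11.96 and 11.76 after WY14643, at 11.26, 10.99, 11.13, 10.89 and 11.27 after EPA, at 11.07, 11.47, 10.86, 10.76 and 10.23 after DHA and at 11.27, 10.97, 10.90 and 10.97 after OA. In PPARα-null mice it was at 12.27, 12.42, 12.25 and 12.07 after WY14643, 11.31, 11.43, 11.49, 11.11 and 11.62 after EPA, 11.43, 11.16, 12.18 and 10.91 after DHA and 11.37, 11.0, 10.85 and 11.50 after OA. All WY14643 mice were above all triacylglycerol mice of their genotype except for PPARα-null DHA replicate 3, at 12.18. The wild-type differences were 0.82 against EPA (adjusted p = 0.00115), 1.05 against DHA (2.07-fold, adjusted p = 0.000135) and 0.90 against OA (SE 0.202, adjusted p = 0.00127). Those in PPARα-null mice were 0.86 (adjusted p = 0.00122), 0.84 (adjusted p = 0.00739) and 1.07 (adjusted p = 0.000364), the one against DHA passing only with replicate 4 of the DHA mice included (0.67, adjusted p = 0.058 without it). Slc6a19 was at 11.51, 11.73, 11.72 and 11.43 in wild-type mice after WY14643, against 11.34, 10.96, 11.35, 11.12 and 11.18 after EPA and 11.42, 10.98, 11.18 and 11.03 after OA. It was higher by 0.41 than after EPA (adjusted p = 0.00658), by 0.49 than after DHA (adjusted p = 0.00171) and by 0.44 than after OA (adjusted p = 0.00741), and in PPARα-null mice, at 11.69, 11.75, 11.88 and 11.75 after WY14643, by 0.49 than after EPA at 11.33, 11.24, 11.37, 11.07 and 11.38 (adjusted p = 0.00214) and by 0.45 than after OA at 11.27, 11.43, 11.27 and 11.29 (adjusted p = 0.00766). Against DHA Slc6a19 differed by 0.18 in PPARα-null mice (adjusted p = 0.333 by limma). Slc15a1 was not called between any agonists: in wild-type mice WY14643 exceeded the triacylglycerols by 0.19 to 0.27 with adjusted p of 0.192 to 0.311, and against OA the 95% interval ran from -0.04 to 0.58.

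**Figure D4:**
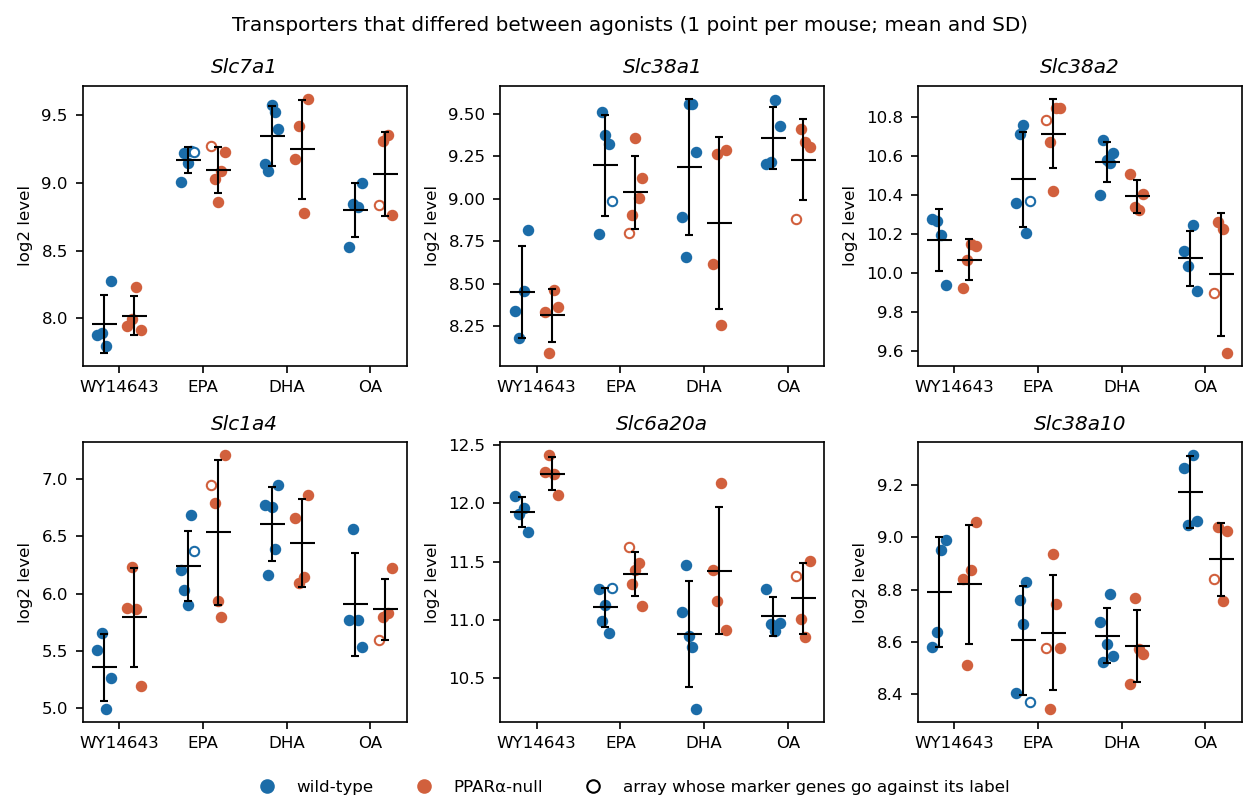
Log2 level of 6 transporters in each mouse (points), with the mean and SD of each genotype and agonist; open circles are the 3 arrays whose Cyp4a10 level went against the label. Slc7a1 is at 8.27 or below in all 8 WY14643 mice and at 8.52 or above in all other mice. Slc6a20a is highest after WY14643. On the probeset read here, Slc38a2 after OA stands with WY14643 at group means between 9.99 and 10.17.

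Of the 5 basolateral genes, Slc7a8, Slc16a10, Slc43a2 and Slc3a2 were higher and Slc7a7 was lower after WY14643 than after OA in PPARα-null mice. Against DHA in PPARα-null mice 1 of the 5, Slc16a10, was called higher, beside 10.9% of all genes. Slc7a8 was at 7.54, 7.12, 6.70 and 8.01 in PPARα-null OA mice and 6.93, 6.79, 6.71 and 6.73 in wild-type OA mice, so that against the WY14643 mice given above the differences were 1.27 (adjusted p = 0.000275) and 1.18 (adjusted p = 0.000345). Against EPA Slc7a8 was higher by 0.95 in PPARα-null (adjusted p = 0.00166) and 0.86 in wild-type mice (adjusted p = 0.00259). Against DHA it was higher by 0.67 in wild-type mice (adjusted p = 0.0181, and 0.0601 without DHA replicate 4 or 0.0503 without WY14643 replicate 2) and differed by 0.33 in PPARα-null mice (adjusted p = 0.345). Slc16a10, at 8.46, 8.27, 7.92 and 8.06 and 9.10, 8.71, 8.10 and 9.04 in wild-type and PPARα-null OA mice, was higher after WY14643 by 0.96 (adjusted p = 0.00154) and 1.14 (adjusted p = 0.000444). On the probeset read here, Slc16a10 differed from EPA by 0.36 in wild-type mice (adjusted p = 0.176 by limma). From DHA it differed by 0.45 in PPARα-null mice (adjusted p = 0.168). Its second probeset was called in both, against DHA only with the 3 doubted libraries included. Slc43a2 was at 10.28, 10.07, 10.49 and 10.47 in PPARα-null mice after WY14643 and at 9.67, 9.57, 8.87 and 9.45 after OA, a difference of 0.94 (adjusted p = 0.00122). In wild-type mice Slc43a2 was at 9.81, 9.85, 10.23 and 9.74 after WY14643 and 9.71, 9.25, 9.05, 9.23 and 9.52 after EPA, a difference of 0.56 (adjusted p = 0.0217, and 0.0621 without EPA replicate 3 or 0.0946 without WY14643 replicate 3), and it exceeded DHA by 0.69 (adjusted p = 0.00637). On the probeset read here, Slc43a2 differed from DHA by 0.42 in PPARα-null mice (adjusted p = 0.156 by limma). From OA it differed by 0.51 in wild-type mice (adjusted p = 0.0596). The other expressed probesets of Slc43a2 had PPARα-null means of 7.75 and 6.03 after WY14643 and 7.38 and 5.06 after OA. In PPARα-null mice the limma test over the 4 agonists gave them adjusted p of 0.644 and 0.264. In wild-type mice it gave 0.0596 and 0.152.

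The heavy chain Slc3a2 changed by less. In PPARα-null mice it was at 10.95, 11.05, 11.14 and 11.14 after WY14643, 10.84, 10.56, 10.68, 10.59 and 10.80 after EPA and 10.78, 10.58, 10.70 and 10.50 after OA, with differences of 0.37 (adjusted p = 0.00449) and 0.43 (adjusted p = 0.00294). In wild-type mice it was at 10.84, 10.80, 10.87 and 10.96, 10.78, 10.25, 10.65, 10.32 and 10.73 and 10.57, 10.41, 10.64 and 10.62 in the same order, with differences of 0.32 (adjusted p = 0.0101) and 0.31 (adjusted p = 0.0251, and 0.0911 without OA replicate 2 or 0.0638 without WY14643 replicate 4). Against DHA Slc3a2 differed by 0.13 in PPARα-null (adjusted p = 0.412 by limma) and by 0.20 in wild-type mice (adjusted p = 0.123). The heavy chain of the apical pair, Slc3a1, went the other way against EPA in wild-type mice, 10.66, 10.67, 10.73 and 10.82 against 10.95, 10.88, 11.37, 11.06 and 10.88 (-0.31, adjusted p = 0.00741). Its light chain Slc7a9, at 11.57, 11.61, 11.65 and 11.87 after WY14643 and 11.82, 11.74, 12.0, 11.81 and 11.92 after EPA, was also lower (-0.18, adjusted p = 0.0426, and 0.0724 without the 3 doubted libraries), a call lost without EPA replicate 3 or 5 or WY14643 replicate 1, 2 or 3 (adjusted p = 0.0831 to 0.147). Slc7a7 was higher after WY14643 than after DHA in wild-type mice by 0.31 (adjusted p = 0.00377). In PPARα-null mice Slc7a7 was lower after WY14643 than after OA, at 11.20, 10.90, 10.88 and 10.88, by 0.26 (adjusted p = 0.0287), and without the 3 doubted libraries, 1 of them OA replicate 1 at 11.20, the difference was -0.18 (adjusted p = 0.0955). Leaving out WY14643 replicate 1 or 4 also ended that call (adjusted p = 0.072 and 0.0632).

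Further calls fell on lysosomal transporters and on members of other roles. Slc38a9, the lysosomal arginine sensor of mTORC1, was at 5.95, 6.17, 6.30 and 5.98 in PPARα-null mice after WY14643, above 5.45, 4.67, 5.37, 5.01 and 5.05 after EPA (0.99, adjusted p = 0.00461) and 5.36, 5.30, 4.40 and 5.26 after OA (1.02, adjusted p = 0.00683). Its difference from DHA in PPARα-null mice was 0.57 (adjusted p = 0.156 by limma). In wild-type mice, at 5.61, 5.76, 5.85 and 5.48 after WY14643, the differences of 0.45 to 0.60 had adjusted p of 0.0745 to 0.233. Slc15a4, a lysosomal transporter of histidine and peptides, was at 6.23, 6.15, 6.40 and 6.51 in PPARα-null mice after WY14643 and 5.46, 5.88, 5.36 and 5.65 after OA (0.74, adjusted p = 0.00388). Against DHA, at 6.02, 5.98, 5.76 and 5.35, it was higher by 0.55 (adjusted p = 0.041), a call lost without DHA replicate 2 or 4 or WY14643 replicate 1, 3 or 4 (adjusted p = 0.0502 to 0.204). Slc38a7, a lysosomal glutamine exporter close to the level of detection, was at 5.78, 5.15, 5.39 and 5.43 in wild-type mice after WY14643, 4.90, 4.90, 5.13, 4.71 and 5.36 after EPA (0.44, adjusted p = 0.0214) and 5.06, 4.71, 4.91 and 5.14 after OA (0.48, adjusted p = 0.0227). Both calls of Slc38a7 were lost without WY14643 replicate 1, the highest of these mice (adjusted p = 0.118 and 0.114), the one against EPA also without EPA replicate 4 (adjusted p = 0.0711) and the one against OA without OA replicate 2 or 3 (adjusted p = 0.0875 and 0.0504). Slc36a1 was lower after WY14643 than after EPA, 8.86, 9.15, 8.98, 8.94 and 7.68, in PPARα-null mice (-0.86, adjusted p = 0.0417), and than after DHA (-1.24, adjusted p = 0.0154, and 0.0611 without DHA replicate 1). Without the 3 doubted libraries, 1 of them EPA replicate 5 at 7.68, the difference of Slc36a1 from EPA was -1.12 (adjusted p = 0.00426), while leaving out any 1 of the other 8 mice put its adjusted p between 0.0615 and 0.0884. Slc7a15 was higher after WY14643 in wild-type mice, at 7.80, 8.18, 7.47 and 7.64, than after OA (1.12, adjusted p = 0.000457) and than after DHA at 7.20, 7.52, 6.75, 6.74 and 6.66 (0.80, adjusted p = 0.00461). From EPA Slc7a15 differed by 0.46 in wild-type mice (adjusted p = 0.0874 by limma). In PPARα-null mice WY14643 exceeded the triacylglycerols by 0.21 to 0.47 (adjusted p = 0.127 to 0.563). The Slc7a15 means after WY14643 were 7.77 in wild-type and 7.76 in PPARα-null mice. Slc7a6os, at 4.97, 5.38, 5.02 and 5.07 after WY14643 and 5.58, 5.55, 5.33 and 5.46 after OA in wild-type mice, differed by -0.37 (adjusted p = 0.0397), with an adjusted p between 0.0676 and 0.116 without OA replicate 1, 2 or 4 or WY14643 replicate 1, 3 or 4. Slc1a1 was called on its second probeset only, higher by 0.99 after WY14643 than after DHA in wild-type mice (adjusted p = 0.0098) and by 0.82 than after EPA in PPARα-null mice (adjusted p = 0.0342, and 0.0627 without the 3 doubted libraries), and lower by 1.05 after DHA than after OA in wild-type mice (adjusted p = 0.04). Slc38a6, an orphan of the family, with group means between 6.90 and 7.26, was the 1 expressed gene called in no comparison, coming nearest between WY14643 and DHA in wild-type mice (0.36, adjusted p = 0.063, and 0.0419 without the 3 doubted libraries).

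Comparing the triacylglycerols with one another, at the same volume and time, asks whether the fatty acid mattered. EPA differed from OA in 3 of the 25 genes in wild-type mice (12%, beside 8.01% of all genes) and 2 in PPARα-null mice (8%, beside 3.15%). DHA differed from OA in 6 (24%, beside 4.56%) and 2 (8%, beside 1.31%), and EPA differed from DHA in 1 gene in wild-type mice (4%, beside 0.719%) and in 0 by limma in PPARα-null mice (beside 0.719%). Slc38a10, an orphan transporter, was higher after OA in wild-type mice, at 9.26, 9.04, 9.31 and 9.06, than after EPA at 8.40, 8.76, 8.67, 8.83 and 8.37 and DHA at 8.68, 8.52, 8.59, 8.78 and 8.55. Every OA mouse lay above every EPA and DHA mouse, and the differences were -0.56 for EPA minus OA (adjusted p = 0.00274) and -0.55 for DHA minus OA (adjusted p = 0.00552). It was also higher after OA than after WY14643, 8.58, 8.64, 8.95 and 8.99, with a difference of -0.38 for WY14643 minus OA (adjusted p = 0.0228) that was no longer called without OA replicate 1 or 3 or WY14643 replicate 1 or 2 (adjusted p = 0.0585 to 0.096). In PPARα-null mice the probeset read here gave -0.28 and -0.33 without a call, while another probeset of Slc38a10 was lower than after OA by 0.39 after EPA (adjusted p = 0.0295, and 0.0518 without the 3 doubted libraries) and by 0.55 after DHA (adjusted p = 0.00497). After WY14643 Slc38a10 was called higher than after DHA in both genotypes, but not on the probeset read here. Slc7a9 was higher after EPA than after OA, 11.59, 11.50, 11.49 and 11.62, in wild-type mice by 0.31 (adjusted p = 0.00618). Its difference between EPA and DHA, 0.30 (adjusted p = 0.0288), had an adjusted p of 0.0639 without the 3 doubted libraries and of 0.0851 to 0.102 without EPA replicate 3 or 5 or DHA replicate 3 or 5. Slc43a3 was at 6.69, 7.13, 7.31, 6.77 and 7.09 after DHA and 6.47, 6.22, 6.39 and 6.39 after OA in wild-type mice, a difference of 0.63 (adjusted p = 0.0148, and 0.0577 without OA replicate 2 or 0.0538 without DHA replicate 3), and in PPARα-null mice at 7.39, 6.96, 7.20 and 7.63 and 6.33, 6.72, 6.87 and 6.79, a difference of 0.62 (adjusted p = 0.0545). Slc7a1 was higher after DHA than after OA in wild-type mice by 0.55 (adjusted p = 0.0267), a call lost without OA replicate 1, 2 or 3 or DHA replicate 3, 4 or 5 (adjusted p = 0.0508 to 0.141). Slc7a7 was lower after DHA than after OA, 11.16, 11.14, 10.98 and 11.24, by 0.33 in wild-type mice (adjusted p = 0.016), a call lost without OA replicate 1 or 4 or DHA replicate 4 or 5 (adjusted p = 0.0518 to 0.0812). In PPARα-null mice Slc7a8 was higher after DHA than after OA by 0.94 (adjusted p = 0.0393), and by 0.72 (adjusted p = 0.172) without DHA replicate 3, and the adjusted p was 0.0959 without DHA replicate 1, 0.103 without OA replicate 2 and 0.248 without OA replicate 3. Of the genes called on the probeset read here, 1 of 5 for DHA against OA and 2 of 3 for EPA against OA in wild-type mice were kept whichever mouse was left out.

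The log2 sums of 8 pancreatic acinar genes, all expressed, overlapped between the agonists in wild-type mice, at 12.96 to 15.29 after WY14643, 6.46 to 16.31 after EPA, 12.54 to 16.83 after DHA and 14.09 to 16.20 after OA. In PPARα-null mice they were at 11.05 to 13.83 after WY14643, 12.53 to 15.87 after EPA, 13.73 to 15.48 after DHA and 15.83 to 16.86 after OA, where WY14643 and OA did not overlap. The sums of 6 smooth muscle genes, all expressed, overlapped between the agonists in wild-type mice. In PPARα-null mice they were at 12.50 to 12.62 after WY14643, 12.65 to 12.93 after EPA, 12.57 to 13.13 after DHA and 12.65 to 13.11 after OA. The part of the acinar and smooth muscle genes in the agonist differences was not tested. The sum of 9 enterocyte genes, all expressed and Fabp1 among them, lay between 16.37 and 16.72 in all 35 arrays. In wild-type mice it was at 16.62 to 16.68 after WY14643, 16.50 to 16.61 after EPA, 16.47 to 16.64 after DHA and 16.64 to 16.72 after OA. In PPARα-null mice the ranges were 16.52 to 16.54, 16.37 to 16.65, 16.45 to 16.55 and 16.51 to 16.62. The genotypes did not overlap after WY14643 and OA, and the part of this sum in the transporter values was not tested. Of the genes of enteric neurons and glia, 0 of 4 were above the level counted as expressed.

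Slc7a1, Slc38a2 and Slc1a4 belong to the textbook targets of ATF4, a choice of members that is not complete. Against OA in wild-type mice Slc7a1 was called lower after WY14643, while Slc38a2 and Slc1a4 were not called. Slc3a2, outside this choice, was called higher after WY14643 than after OA and EPA in both genotypes. The other genes of the amino acid response were read from a list. Of 22 expressed genes on it, 9 were lower and 2 higher after WY14643 than after OA in wild-type mice, beside 17.7% and 16.2% of all expressed genes. Against EPA 14 were lower and 0 higher, beside 23.1% and 22.2%, and against DHA 18 were lower and 1 higher, beside 20.8% and 19.7%. In PPARα-null mice 13 were lower and 2 higher than after OA, beside 13.3% and 18.3% of all genes, 14 lower and 1 higher than after EPA, beside 17% and 20.9%, and 14 lower and 1 higher than after DHA, beside 9.04% and 10.9%. Against DHA in wild-type mice Chac1, which degrades glutathione, was lower by 2.96 (adjusted p = 0.00014), Mthfd2, a mitochondrial folate enzyme, by 2.60 (adjusted p = 7.47e-07), Psat1 of serine synthesis by 2.43 (adjusted p = 4.57e-05) and Asns, asparagine synthetase, by 1.39 (adjusted p = 7.59e-05). The same genes in PPARα-null mice were lower by 2.83 (Chac1, adjusted p = 0.00297), 2.27 (Mthfd2, adjusted p = 0.000364), 2.25 (Psat1, adjusted p = 0.00204) and 1.10 (Asns, adjusted p = 0.00559). Ddit4, an inhibitor of mTORC1, went the other way, higher by 0.63 in wild-type (adjusted p = 0.042) and by 1.32 in PPARα-null mice (adjusted p = 0.00208). Between the genotypes 1 of the 22 genes was called after WY14643, Cth of cysteine synthesis (-0.36, adjusted p = 0.0426), beside 7.56% of all genes. After EPA, DHA and OA 0 were called, beside 0%, 8.2% and 0.498% of all genes. Averaged over the agonists 1 was called higher, Cebpb, and 1 lower, Cth, beside 11.7% and 14.1% of all genes.

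**Figure D5:**
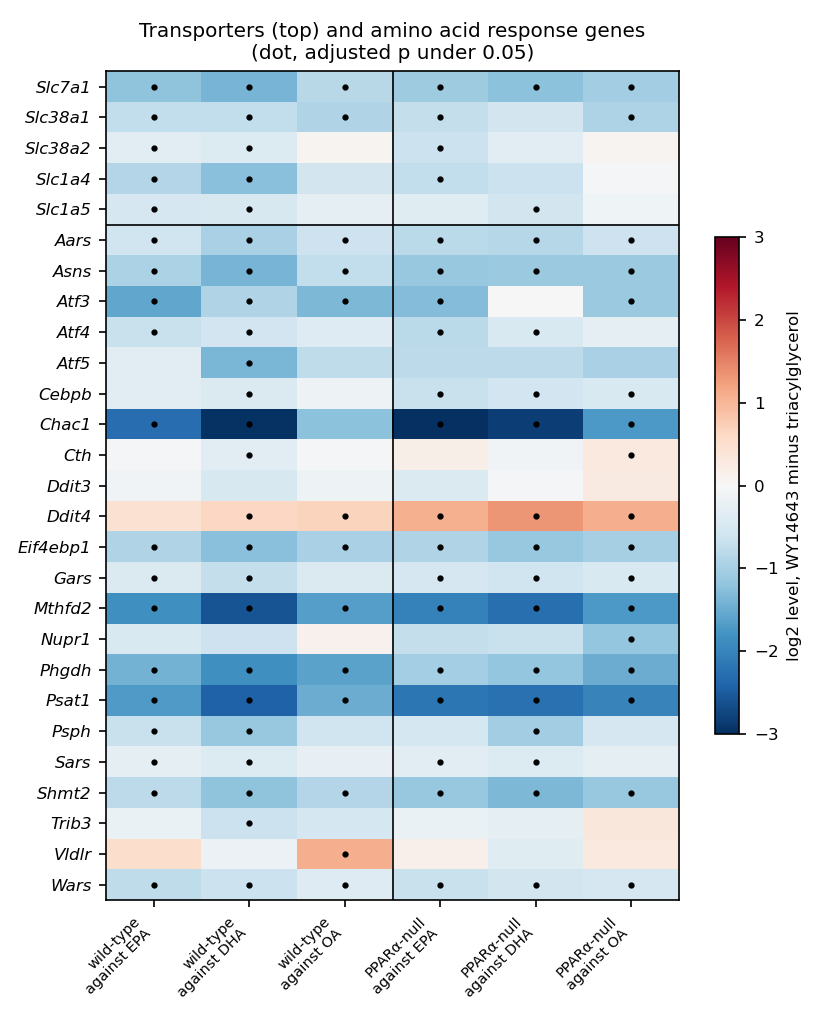
Colour gives the difference in log2 level, WY14643 minus each triacylglycerol in each genotype, for 5 transporters (top) and 22 amino acid response genes (below); dots mark an adjusted p under 0.05. Mthfd2, Psat1 and Phgdh are lower in all 6 columns, as Slc7a1 is, whereas Ddit4 is higher in 5 with a dot.

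Peptidases of the brush border and cytosol, which release the substrates of the transporters, were read in the same way. Their list also held Slc9a3, a sodium and proton exchanger that is not a peptidase. After DHA 7 of 17 expressed genes of that list were lower in wild-type mice, beside 3.71% of all genes, among them the brush-border enzymes Mep1a (-1.08, adjusted p = 0.0065), Ace (-1.05, adjusted p = 0.00449) and Xpnpep2 (-1.03, adjusted p = 0.00561), and without replicate 3 of the PPARα-null DHA mice 2 were. The share of all genes called without that mouse is not given here. Averaged over the agonists 8 were lower, beside 14.1% of all genes, Ace by 0.67 (adjusted p = 6.37e-05), and 1 was higher, Mep1b (0.09), beside 11.7%. After WY14643 against DHA 12 peptidase genes were higher and 1 lower in wild-type mice, beside 19.7% and 20.8% of all genes, among them Mep1a (1.38) and Ace (1.01). Of 16 expressed genes of amino acid catabolism, 6 were lower in wild-type mice averaged over the agonists and 1 higher, beside 14.1% and 11.7% of all genes. Prodh, the first enzyme of proline breakdown, was lower by 1.06 (adjusted p = 1.72e-07), and after WY14643 alone by 1.66 (adjusted p = 2.02e-05). Of 14 expressed genes of amino acid sensing by mTORC1, 5 were higher and 1 lower after WY14643 than after DHA in wild-type mice, beside 19.7% and 20.8% of all genes, with Sesn1, a leucine sensor family member, higher by 0.65. In PPARα-null mice 5 were higher, beside 10.9% of all genes, Sesn1 by 1.04.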

How the data were processed

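RNA of 35 mice, 1 on each array, was hybridised to Affymetrix arrays of the whole mouse genome. The deposited values were log2 expression levels that the authors had normalized by GCRMA, as the submitters' processing notes name it, and the array medians lay between 2.83 and 2.88. The 64 control probesets were left out. Genes were named from the platform annotation, in which 34945 of 45037 probesets had 1 gene symbol, 932 several and 9160 none, and only the first were used. A linear model with 1 mean per genotype and agonist was fitted in R 4.3.3 with limma 3.58.1 to the 15384 probesets with a group mean above 5, and the scripts were tested on simulated data. Adjusted p are Benjamini-Hochberg values over these probesets, with a threshold of 0.05. The methods of the study used an unadjusted p under 0.01, which was run as an alternative. Other alternatives were no filter, a level of 6, quantile normalization, no intensity trend, 1 probeset per gene, a fit to only the groups compared, replicate number as a block, and leaving out each array. Replicate numbers came from the labels. Leaving out the 3 doubted arrays was planned for the genotype comparisons, and for the agonist pairs and the pathway lists it was chosen after seeing the data.

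Members and lists were chosen with earlier results of these data known. All expressed members are named by role. On the probeset read here, each mouse's value is given for most calls, in the groups where the call was made or where it was largest. For the members the study names it is given in part of the groups. Of the lists, counts and the called genes with the largest differences are given. The number of arrays limits the precision. The p-values set a difference of group means against the spread between these mice within their groups.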

Additional observations from a re-analysis of the deposited data

Results flagged for a closer look

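Within the 25 expressed genes and 8 groups, 9 of 200 sets of mice held 1 mouse that stood apart from the others of its group by Dixon's criterion at 95%, a criterion that chance meets in about 1 set in 20. Of the 9 mice, 3 were on the arrays whose Cyp4a10 level went against the label. These were Slc36a1 in PPARα-null EPA replicate 5 at 7.68 (the others 8.86 to 9.15), Slc38a6 in wild-type EPA replicate 5 at 7.52 (the others 6.79 to 6.98) and Slc7a7 in PPARα-null OA replicate 1 at 11.20 (the others 10.88 to 10.90). Slc38a9 stood apart in 3 groups, in PPARα-null DHA replicate 3 at 6.42 (the others 5.11 to 5.31), in PPARα-null OA replicate 3 at 4.40 (the others 5.26 to 5.36) and in wild-type DHA replicate 5 at 4.55 (the others 5.09 to 5.29). The remaining 3 were Slc38a6 in wild-type DHA replicate 1 at 6.68 (the others 6.92 to 7.0), Slc3a2 in wild-type DHA replicate 2 at 10.92 (the others 10.57 to 10.65) and Slc6a19 in PPARα-null OA replicate 2 at 11.43 (the others 11.27 to 11.29).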

How the results depend on the processing

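Without a filter on low levels 1 of the 25 genes was called between the genotypes after WY14643 and 3 after DHA, and in a fit to only the groups compared 4 and 0. At an unadjusted p under 0.01, 1 was called after OA. Leaving out each array in turn gave 1 to 2 genes after WY14643, 0 after EPA, 0 to 10 after DHA, 0 after OA, 10 to 12 averaged over the agonists, 15 to 19 among agonists in wild-type mice, 13 to 17 in PPARα-null mice and 0 for the interaction. Without the 3 doubted arrays these counts were 2, 0, 6, 0, 11, 18, 14 and 0, beside 8.52%, 2.08%, 9.67%, 1.77%, 29.3%, 47%, 36.7% and 1.23% of all genes. With the replicate number as a block they were 2, 0, 4, 0, 11, 19, 15 and 0; the labels do not say that a number marks a shared litter or day, and the deviations of same-numbered mice correlated over 0.1 in 6 of 17 pairs (median 0.04, range -0.44 to 0.55), among them 3 of the 4 WY14643 pairs (0.29, 0.34, 0.55 and 0.09). The block changed no other count by over 1.5 times. Directions were followed in 39 pairs of a gene and a genotype comparison, picked for an unadjusted p under 0.05 by limma in the main fit. No agonist comparison was among them. None reversed its direction, which picking them by p from the same mice made likely beforehand. The causes of the changes in count were not tested. For settings other than leaving out the 3 doubted arrays, the share of all genes called is not given here. Small changes near the threshold are limited by the 4 or 5 arrays in a group.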
